A study of Mus musculus with 2 samples.

Results

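The cells described here were the fibroblasts of the mammary gland at 18.5 days of pregnancy, 85 of 15772 kept cells in single-cell RNA sequencing of Ehf knockout and wild type mice. A fibroblast was a kept cell in which at least 4 of the 7 genes Col1a1, Col1a2, Col3a1, Dcn, Lum, Pdgfra and Dpt had at least 1 unique molecular identifier (UMI, 1 captured transcript), and in which the keratins Krt14 and Krt5 together stayed below 1% of UMIs. Kept cells had at least 1000 UMIs, at least 500 detected genes and at most 20% mitochondrial UMIs. There were 25 fibroblasts in the Ehf knockout library and 60 in the wild type library. Ehf is a transcription factor with an ETS domain that epithelial cells express, and the study asked what its loss does to the gland late in pregnancy. Each genotype had 1 library, made from the pooled glands of 2 adult pregnant females. Both were depleted in the sorter of cells with Ter119, CD31 or CD45, markers of red blood cells, endothelium and leukocytes, to collect epithelial cells. The labels give neither the genetic background nor the part of Ehf that was deleted. With 1 library per genotype no difference between genotypes has a replicate check, and no test was run.

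Fibroblasts make and remodel the extracellular matrix of connective tissue: collagen fibres, the proteoglycans that space them, elastic fibres and part of the basement membrane. In the mammary gland they lie around the ducts and alveoli and between the fat cells, and they send growth factors, chemokines and matrix signals to the epithelium. In many mouse tissues fibroblasts that carry Pi16 and Dpp4 lie in the adventitia of vessels and in fascia, while fibroblasts that carry Col15a1 and much basement membrane collagen lie within the organ.

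The knockout library held 7275 barcodes and 40066795 UMIs, and the wild type library 11258 barcodes and 48720938 UMIs. The fibroblasts held 171116 UMIs in the knockout library, with a median of 5264 per cell, and 307571 UMIs in the wild type library, with a median of 3882.5. The median mitochondrial share of a fibroblast was 3.61% in knockout and 2.90% in wild type cells. Levels below are UMIs of a gene per 1000000 UMIs of the named cells (CPM), counted at the 3' end, so that each molecule counts once whatever its length. The libraries shared 25 barcodes, and 1 fibroblast barcode occurred in both. Ehf had 0 UMIs in knockout and 3 UMIs in wild type fibroblasts, so it was not detectable at this depth in the knockout cells, where 3 UMIs would be 17.5 CPM. In luminal-like cells Ehf stood at 75.8 CPM in knockout and 113 CPM in wild type cells. A 3' tag outside the deleted part checks nothing.

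Fibroblasts were 0.381% of kept cells in the knockout library (exact Clopper-Pearson 95% interval 0.247 to 0.562%) and 0.651% in the wild type library (0.497 to 0.838%). These intervals, and all those below, cover counting error only, and the sort for epithelial cells can set both shares. The keratin clause removed 0 cells. All 7 genes of the rule were detected in 76.0% of knockout and 53.3% of wild type fibroblasts, at the unequal depths given above. At the edge of the rule stood 5 fibroblasts with exactly 4 of the genes, in which the 7 genes made up 0.0429 to 0.277% of UMIs. Just outside it were 52 cells with 3 of the genes, at 0.0231 to 0.660% of UMIs. Of those 52 cells, 31 carried mostly basal markers, 16 mostly endothelial markers and 2 mostly pericyte markers. The 5 cells at the edge also carried markers of other types, since 2 were basal-like and 3 endothelial-like by their most detected marker list.

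The genes that chose the cells were those of the collagen fibre and its coat, and their levels are given as a description. Col1a2 and Col1a1 encode the chains of type I collagen, the main fibre of connective tissue. Col1a2 stood at 9818 CPM in knockout and 12313 CPM in wild type fibroblasts, against 4.96 CPM in basal-like cells of both libraries. Col1a1 stood at 2969 CPM in knockout and 3827 CPM in wild type fibroblasts, against 1.05 CPM in basal-like cells. Col3a1, the type III collagen of loose tissue, stood at 9257 CPM in knockout and 11314 CPM in wild type fibroblasts, against 28.3 CPM in basal-like cells. The small leucine-rich proteoglycans Dcn and Lum bind collagen fibrils. Dcn was the least particular of the 7, at 4786 CPM in knockout and 4448 CPM in wild type fibroblasts and 436 CPM in basal-like cells. A Dcn UMI was present in 84 of 85 fibroblasts and in 65.0% of basal-like cells, and in 94.1% against 35.3% with every cell thinned to 1000 UMIs. Lum stood at 1999 CPM in knockout and 1951 CPM in wild type fibroblasts, against 0.317 CPM in basal-like cells. Dpt, a small matrix protein that binds Dcn, stood at 1508 CPM in knockout and 1453 CPM in wild type fibroblasts, against 0.122 CPM in basal-like cells. Pdgfra, the receptor for platelet-derived growth factor on fibroblasts, was the lowest, at 351 CPM in knockout and 267 CPM in wild type fibroblasts and 0.708 CPM in basal-like cells, and 61 of 85 fibroblasts had a UMI of it. The 13 pericyte-like cells came closest for the collagens, with 876 CPM of Col1a2 and 1256 CPM of Col3a1, but had 0 UMIs of Dcn, Lum, Dpt and Pdgfra.

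**Figure D1:**
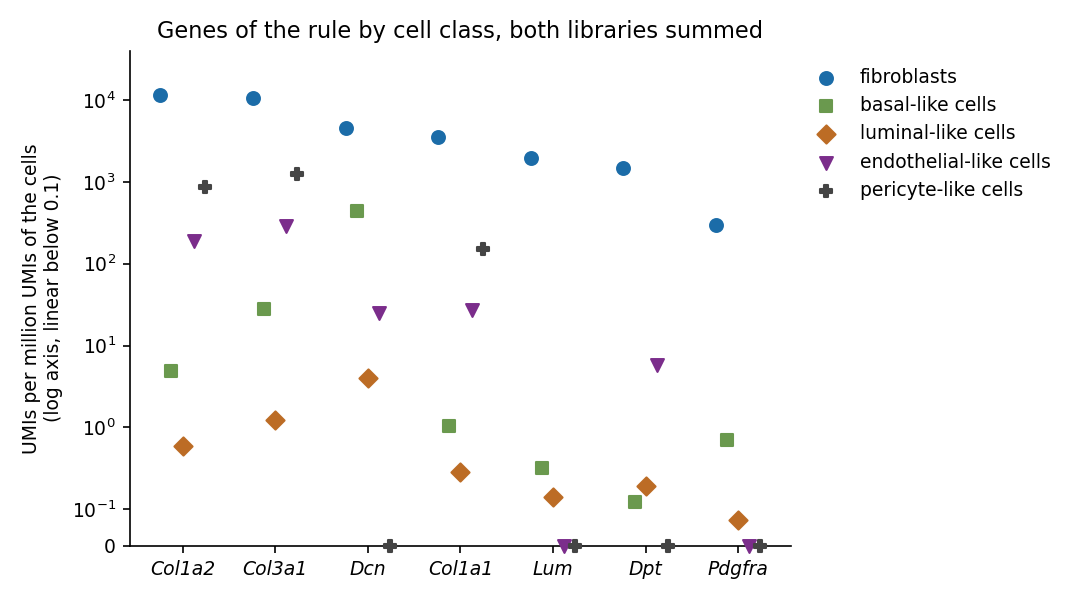
The 7 genes of the rule on the horizontal axis, with their levels in CPM on a log axis that turns linear below 0.1, for fibroblasts and 4 other classes of cells, each summed over both libraries. Fibroblasts lie highest for every gene; Dcn in basal-like cells (436 CPM) and the collagens in pericyte-like cells (876 and 1256 CPM) lie nearest to them.

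Of 3170 genes with at least 50 CPM and 20 UMIs in fibroblasts, 578 (18.2%) were at least 4-fold higher in fibroblasts than in all other kept cells, and 30 (0.946%) at least 4-fold lower. Since the cells were chosen by their counts, this contrast describes identity and nothing is read from its counts. The median log2 difference over all genes tested was 0.40. The 25 genes with the highest ratios, leaving out the rule genes, included many secreted matrix proteins. Efemp1, a fibulin of elastic and basement membrane fibres, led with 246 UMIs in fibroblasts and 3 in all other kept cells, a log2 ratio of 13.84 (12.28 to 16.13). Mfap5, a microfibril protein, followed the same pattern with 468 UMIs in fibroblasts and 12 in other cells. Fn1, fibronectin, had 1038 UMIs in fibroblasts and 82 in other cells, and Loxl1, which crosslinks elastin, 253 and 50 UMIs. Other matrix and secreted members of the 25 were Tnxb, Svep1, Emilin2, Ccdc80, Sod3, Htra3, Mmp3 and Sfrp4, a secreted Wnt antagonist. Pi16, a secreted peptidase inhibitor-like protein, had 541 UMIs in fibroblasts and 22 in other cells. Inmt, an N-methyltransferase, had 124 UMIs in fibroblasts and 2 in other cells (log2 ratio 13.44, 11.55 to 16.50). The transcription factors among the 25 were Osr2 and Ebf2, with Osr2 at 129 CPM in knockout and 130.1 CPM in wild type fibroblasts and 0.035 CPM in other cells.

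The matrix lists, which were chosen with earlier results of these data known, lay far above that median. Of 13 fibrillar and associated collagens, 11 passed the filter on low values and 10 were at least 4-fold higher in fibroblasts, with a median log2 difference of 6.72. Of 12 basement membrane genes 11 passed and 10 were higher, with a median of 2.95. Proteoglycans had 8 of 9 that passed higher, elastic fibre genes 10 of 11, and enzymes that fold and crosslink collagen 12 of 14. Matrix proteases and their inhibitors had 12 of 13 higher and matricellular glycoproteins, which sit in the matrix without forming fibres, 7 of 11. The collagen list holds the rule genes Col1a1, Col1a2 and Col3a1, and the proteoglycan list holds the rule genes Dcn and Lum. A gene could also pass through its high level in fibroblasts alone, so these counts are no support for a difference.

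Leiden clustering at resolution 0.5 split the fibroblasts into 3 groups, called here by their leading genes. The Pi16-led group held 41 cells (12 knockout, 29 wild type), the collagen-rich group 30 cells (10 knockout, 20 wild type) and a mixed group 14 cells (3 knockout, 11 wild type). The Pi16-led group was 48.0% of knockout and 48.3% of wild type fibroblasts, the collagen-rich group 40.0% of knockout and 33.3% of wild type fibroblasts, and the mixed group 12% of knockout and 18.3% of wild type fibroblasts. The median depth was 3680 UMIs per cell in the Pi16-led and 4761 in the collagen-rich group. The mixed group had a median of 10835.5 UMIs and held 34.4% of all fibroblast UMIs. The groups were made from the counts of these cells, so the genes that set them apart are a description, with no test.

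A Pi16 UMI was found in 37 of 41 cells of the Pi16-led group and in 0 of 30 cells of the collagen-rich group. The level of Pi16 in single cells of the Pi16-led group ran between 0 and 7065 CPM with a median of 3287 CPM. Dpp4, a cell surface peptidase, had a UMI in 34 of 41 Pi16-led and 7 of 30 collagen-rich cells. The collagen-rich cells were marked by the opposite set. Col15a1, a collagen of the basement membrane zone, had a median of 0 CPM per cell in the Pi16-led group and 1501 CPM in the collagen-rich group. Lpl, lipoprotein lipase, which frees fatty acids from circulating fat, was detected in all 30 collagen-rich cells with a median of 3408 CPM, and in 18 of 41 Pi16-led cells with a median of 0. The 7 rule genes made up a median of 1.90% of UMIs in a Pi16-led cell, 6.39% in a collagen-rich cell and 1.19% in a mixed cell. A list of 13 adventitial fibroblast genes made up a median of 2.14% in Pi16-led and 0.296% in collagen-rich cells. A list of 10 parenchymal fibroblast genes made up medians of 0.0750% and 0.407% in the same order. Summed over cells, the parenchymal list took 0.440% of UMIs in basal-like cells, 0.389% in the collagen-rich and 0.117% in the Pi16-led group. Its summed level was thus not particular to fibroblasts. Of its 10 genes 9 passed the filter on low values. Of these, 6 were at least 4-fold higher in fibroblasts than in other kept cells, beside 18.2% of all genes tested. The median log2 difference of the 9 was 7.33. As above, a gene could pass through its high level in fibroblasts alone.

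**Figure D2:**
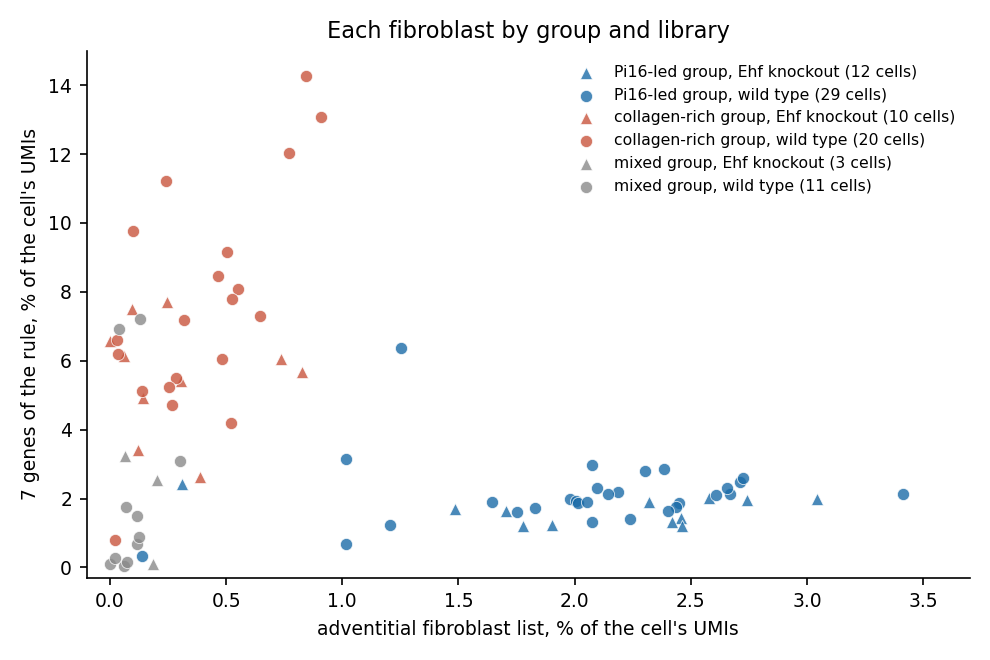
Each point is 1 fibroblast, with the adventitial fibroblast list on the horizontal axis and the 7 rule genes on the vertical axis, both in percent of the cell's UMIs; colour gives the group, triangles are Ehf knockout cells and circles wild type cells. Cells of both libraries lie in each group: Pi16-led cells lie to the right (median 2.14% adventitial), collagen-rich cells high on the left (median 6.39% rule genes) and most mixed cells low on the left.

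Between the Pi16-led and the collagen-rich group, a gene with at least 30 UMIs over both was counted as higher or lower at 2-fold or more with a counting interval that left out 1. Of 1636 genes, 222 (13.6%) were higher and 250 (15.3%) lower in the Pi16-led group. These shares over all genes are the background for the counts of list members below. Ratios are scaled so that the median gene is at 0, which moves them by 0.06 on the log2 scale from plain CPM. In the knockout library alone 91 genes were higher and 144 lower, and in the wild type library alone 140 and 167. The libraries shared 55 of the higher genes (60.4% of the knockout list, 39.3% of the wild type list) and 87 of the lower genes (60.4% and 52.1%).

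Fibrillar collagens were lower in the Pi16-led group for 9 of 10 genes that passed. Col1a2 stood at 4054 CPM in knockout and 4939 CPM in wild type Pi16-led cells, against 18648 CPM in knockout and 28293 CPM in wild type collagen-rich cells, a log2 ratio of -2.47. Col3a1 stood at 2871 and 3942 CPM in knockout and wild type Pi16-led cells, against 19152 and 27702 CPM in knockout and wild type collagen-rich cells, a log2 ratio of -2.85. Col1a1, the partner chain of Col1a2, had a log2 ratio of -2.54, and the type V and VI chains Col5a2 and Col6a3 had -2.91 and -1.93. Both libraries gave the same order for each of these, but the groups were clustered from both libraries together, so this is no separate check. The exception was Col14a1, which coats collagen fibrils, at 662 CPM in knockout and 596 CPM in wild type Pi16-led cells and 94.6 and 127 CPM in knockout and wild type collagen-rich cells. As a list, fibrillar collagens took 1.26% of UMIs in the Pi16-led and 6.66% in the collagen-rich group. Serpinh1, the chaperone of collagen in the endoplasmic reticulum, was lower in Pi16-led cells as well, with a log2 ratio of -1.24. In the list of collagen folding and crosslinking enzymes 4 of 10 genes were lower and 1 was higher, Pcolce2 (3.26), which aids the trimming of procollagen.

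Promoters of 3 genes at the poles of this contrast, which are among the genes that differed most in level, are shown from RefSeq (GRCm38.p6) as the 250 bases before the gene start on the plus strand. Capitals mark the core promoter motifs CCAAT and TATAAA, both searched on both strands. The stretches lie at chr6:4505368-4505617 for Col1a2, chr1:45311288-45311537 for Col3a1 and chr17:29318632-29318881 for Pi16.
Col1a2: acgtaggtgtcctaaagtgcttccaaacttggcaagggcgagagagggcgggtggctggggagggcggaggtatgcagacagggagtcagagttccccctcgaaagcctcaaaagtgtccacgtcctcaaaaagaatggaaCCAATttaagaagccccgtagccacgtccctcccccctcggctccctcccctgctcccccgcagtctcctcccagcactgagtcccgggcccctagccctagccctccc
Col3a1: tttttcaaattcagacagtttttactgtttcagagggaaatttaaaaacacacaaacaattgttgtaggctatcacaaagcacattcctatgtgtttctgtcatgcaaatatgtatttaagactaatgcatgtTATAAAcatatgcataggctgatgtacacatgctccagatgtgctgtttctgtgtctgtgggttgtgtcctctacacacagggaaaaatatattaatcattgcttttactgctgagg
Pi16: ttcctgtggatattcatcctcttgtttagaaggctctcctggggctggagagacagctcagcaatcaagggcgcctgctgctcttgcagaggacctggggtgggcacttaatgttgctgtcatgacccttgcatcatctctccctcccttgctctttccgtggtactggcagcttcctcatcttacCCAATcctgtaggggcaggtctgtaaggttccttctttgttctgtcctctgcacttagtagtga
Col1a2 and Pi16 each held 1 CCAAT, whose first base lay 109 and 64 bases before the start, and Col3a1 held 1 TATAAA at 117 bases. Of 32851 promoters of this length, 33.8% held CCAAT and 12.4% TATAAA. A match is a description of these letters, not a site of binding.

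The basement membrane list was lower in the Pi16-led group for 8 of 10 genes and higher for 0. Col4a1, a chain of type IV collagen, the sheet-forming collagen of basement membranes, stood at 110.4 CPM in knockout and 498 CPM in wild type Pi16-led cells, against 4098 and 4318 CPM in knockout and wild type collagen-rich cells. Col15a1 had 3 UMIs in the Pi16-led and 223 UMIs in the collagen-rich group, a log2 ratio of -6.25 (-8.54 to -4.69). Col18a1, which gives rise to endostatin, had -4.86, and the laminin chains Lama2 and Lamb1 -1.94 and -1.95. Nid1, nidogen, which links laminin to type IV collagen, did not follow them, with a log2 ratio of 0.18 (-0.07 to 0.43). Sparc, which binds collagen and assists its assembly, was lower at -2.35, and so was Postn, periostin, at -3.72, with 268 CPM in knockout and 422 CPM in wild type Pi16-led cells and 5423 and 3969 CPM in knockout and wild type collagen-rich cells. Thbs1, thrombospondin, was also lower (-3.58).

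Proteoglycans divided between the groups. Lum was lower in Pi16-led cells, at 568 CPM in knockout and 649.8 CPM in wild type cells, against 4146 and 4729.6 CPM in knockout and wild type collagen-rich cells. Bgn, biglycan, was lower as well (-2.65). Ogn, osteoglycin, was higher, at 1703 CPM in knockout and 1982 CPM in wild type Pi16-led cells, against 678 and 749.6 CPM in knockout and wild type collagen-rich cells. Dcn lay close in both groups, with a log2 ratio of -0.28 (-0.41 to -0.15). Dpt ran opposite to the 4 rule genes that were lower, at 3028 CPM in knockout and 3649.9 CPM in wild type Pi16-led cells and 962 and 992 CPM in knockout and wild type collagen-rich cells. Pdgfra, at -0.70, did not pass the 2-fold rule.

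Of 10 elastic fibre genes 3 were higher in the Pi16-led group and 2 lower, beside 13.6% higher and 15.3% lower of all genes tested. Eln, elastin, stood at 868 CPM in knockout and 823 CPM in wild type Pi16-led cells, against 378 and 179 CPM in knockout and wild type collagen-rich cells. Fbn1, the fibrillin of mature microfibrils, was higher in the Pi16-led group by 1.03, while Fbn2, the fibrillin known mostly from development, had a log2 ratio of -3.65. Efemp1 and Loxl1, which stood far above other cell types, lay at 0.16 and -0.06 between the groups. Among matrix proteases and inhibitors Timp2 and Timp3, inhibitors of metalloproteinases, were higher in Pi16-led cells (2.17 and 2.65), and Mmp3, stromelysin, was lower (-2.42). Mmp3 stood at 15.8 CPM in knockout but 455 CPM in wild type Pi16-led cells, and at 1434 and 1415 CPM in knockout and wild type collagen-rich cells. Fn1 lay at -0.20, with 3060.0 and 2848 CPM in knockout and wild type Pi16-led cells and 2696 and 3589 CPM in knockout and wild type collagen-rich cells.

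The adventitial list was higher in the Pi16-led group for 10 of 11 genes. Pi16 itself stood at 3959 CPM in knockout and 3119 CPM in wild type Pi16-led cells, against 0 UMIs in collagen-rich cells of both libraries. With the 0 set at a floor of 3 counts over the collagen-rich group, it was 175-fold higher. The lower limit of its log2 ratio was 7.15. The stem and progenitor surface antigens Ly6a and Cd34 were higher by 2.92 and 2.32, and Ly6c1 by 4.18. Dpp4 stood at 457 CPM in knockout and 585 CPM in wild type Pi16-led cells, against 31.5 and 95 CPM in knockout and wild type collagen-rich cells. Anxa3, an annexin, and Sema3c, a secreted guidance protein, were higher by 5.08 and 5.19. Smpd3, a neutral sphingomyelinase outside the list, was at 2855 and 3206 CPM in knockout and wild type Pi16-led cells and at 47.3 and 10.6 CPM in knockout and wild type collagen-rich cells, a log2 ratio of 6.86. Clec3b, tetranectin, differed less, by 1.44, and Mfap5 at 0.75 did not pass.

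The parenchymal list was lower in the Pi16-led group for 6 of 8 genes and higher for 1. Smoc2, a matricellular calcium-binding protein, had a log2 ratio of -2.62 and Inmt one of -2.42. Among adipocyte precursor genes, Lpl was at 158 CPM in knockout and 259.9 CPM in wild type Pi16-led cells, against 4634 and 3874 CPM in knockout and wild type collagen-rich cells. Fabp4, a fatty acid carrier of fat cells and endothelium, had 0 UMIs in Pi16-led cells and 2207 CPM in knockout and 465 CPM in wild type collagen-rich cells. With the 0 set at the floor of 3 counts over the Pi16-led group it was 62.8-fold higher in the collagen-rich group. The interval of its log2 ratio between the Pi16-led and the collagen-rich group ended at -5.66. Endothelial markers took 0.00631% of UMIs in knockout and 0.00317% in wild type collagen-rich cells, and their part in this was not tested. The adipocyte genes Plin1 and Cidec, coats of the fat droplet, were at 0 UMIs in fibroblasts, and 0 of 6 genes of the adipocyte list passed the filter.

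Among secreted regulators, 5 of 7 complement genes and 4 of 5 TGF-beta and BMP genes were higher in the Pi16-led group, with 0 lower in either list. Of 5 genes of the IGF binding protein list 3 were higher and 1 lower. C3, the central protein of the cascade, stood at 2492 CPM in knockout and 2686 CPM in wild type Pi16-led cells, against 126 and 106 CPM in knockout and wild type collagen-rich cells. Serping1, the inhibitor of C1, was higher by 1.19, while C1s1 and C1ra, proteases of that complex, lay at -0.04 and -0.10. Igfbp5, which binds insulin-like growth factors, was at 10316 CPM in knockout and 5123 CPM in wild type Pi16-led cells and at 78.8 and 169 CPM in knockout and wild type collagen-rich cells. Igfbp6 was higher by 1.99, and Igfbp7 was lower, with a log2 ratio of -2.85. Bmp2, a bone morphogenetic protein, stood at 394 CPM in knockout and 173 CPM in wild type Pi16-led cells, against 15.8 and 10.6 CPM in knockout and wild type collagen-rich cells. Sfrp4, Il33, an alarm cytokine, and Cxcl13, a chemokine for B cells, had 48, 40 and 32 UMIs in the Pi16-led group and 0 in the collagen-rich group. With the 0 set at the floor of 3 counts these were 15.6-fold, 13-fold and 10.4-fold higher. The lower limits of the log2 ratios were 3.61 for Sfrp4 and 3.34 for Il33.

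Of 10 chemokines and cytokines 3 were higher in the Pi16-led group and 4 lower, beside 13.6% higher and 15.3% lower of all genes tested. Ccl11, eotaxin, had a log2 ratio of -2.13 between the Pi16-led and the collagen-rich group, and Il6 one of -3.70. Cxcl12, a chemokine that retains leukocytes and progenitors, had a log2 ratio of -1.33, with 410.1 CPM in knockout and 173 CPM in wild type Pi16-led cells and 1056 and 380.1 CPM in knockout and wild type collagen-rich cells. Of its 26 UMIs in knockout Pi16-led cells all but 3 lay in 1 cell. Growth factors known to act on mammary epithelium were scarce: 4 of 17 passed the filter, with 2 of them 4-fold higher in fibroblasts. Igf1, which supports alveolar growth, stood at 251 CPM in knockout and 117 CPM in wild type fibroblasts, against 0.455 CPM in other kept cells. Hgf, at 23.4 and 26.0 CPM in knockout and wild type fibroblasts, stood at 37.3 CPM in basal-like cells. Fgf10 and Fgf7, ligands of the epithelial receptor Fgfr2, stood at 6.50 to 13 CPM in either library. Of hormone receptors, the prolactin receptor Prlr had 0 UMIs in knockout and 16.3 CPM in wild type fibroblasts, against 68.7 CPM in other kept cells.

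Of 7 receptors that passed, 2 were higher in the Pi16-led group and 1 lower, beside 13.6% higher and 15.3% lower of all genes tested. Nothing is read from a count of so few genes. Tgfbr2, which binds TGF-beta, and Fgfr1 were higher in Pi16-led cells (1.56 and 1.57), and Egfr was lower (-1.59). Pdgfrb lay at -0.93 and did not pass. Of 15 mesenchymal transcription factors 4 were higher and 2 lower, beside the same shares of all genes, and nothing is read from this count either. Osr2 stood at 299.7 CPM in knockout and 368 CPM in wild type Pi16-led cells, against 47.3 and 52.8 CPM in knockout and wild type collagen-rich cells, and Ebf2 and Prrx1 were higher by 2.26 and 1.38. Tcf4, a helix-loop-helix factor, was lower, at 315 CPM in knockout and 433 CPM in wild type Pi16-led cells and 1356 and 1129.6 CPM in knockout and wild type collagen-rich cells. Zeb1 was also lower (-1.12). Klf4, the most abundant of those named here, at 3565 and 3076 CPM in knockout and wild type Pi16-led cells, lay at 0.27. Gas1, a hedgehog co-receptor, was lower in Pi16-led cells, with a log2 ratio of -2.52, but Gli1 and Ptch1, target genes of the pathway, were at 0 UMIs in fibroblasts.

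**Figure D3:**
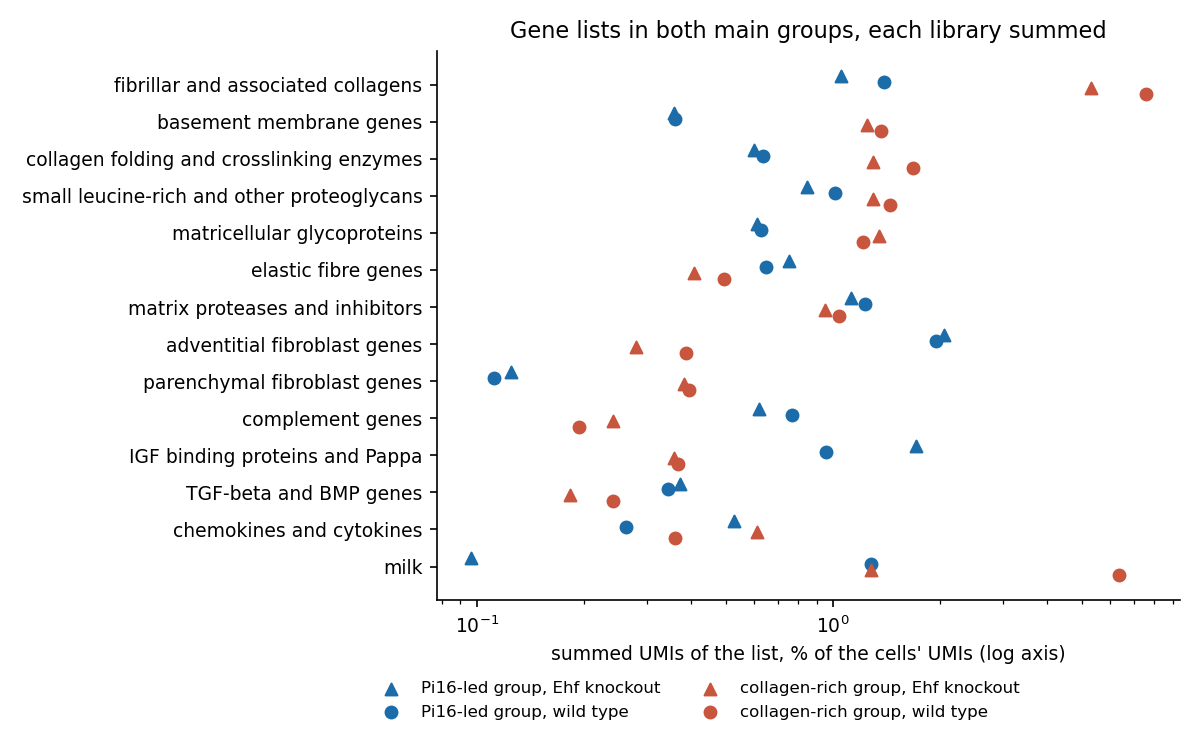
Summed UMIs of 14 gene lists in percent of the UMIs of the Pi16-led (blue) and collagen-rich (red) cells on a log axis, with triangles for the Ehf knockout and circles for the wild type library. In both libraries the Pi16-led cells lie lower for fibrillar collagens and basement membrane genes and higher for adventitial and complement genes; milk genes lie higher in wild type cells of either group.

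The mixed group could not be described as a further kind of fibroblast from these data. Of its 14 cells, 12 had at least 4 of 9 basal markers, 7 had at least 4 endothelial markers, 5 had both, and 9 had at least 2 pericyte markers. All 5 fibroblasts counted as cycling were in it. Endothelial markers took 0.275% of UMIs in the mixed group, 0.002% in the Pi16-led and 0.004% in the collagen-rich group, against 0.481% in endothelial-like cells. Basal markers took 1.01% in the mixed group, 0.116% in the Pi16-led and 0.0221% in the collagen-rich group, against 2.67% in basal-like cells. Fabp4 stood at 17628 CPM in the mixed group, against 36155 CPM in endothelial-like cells. Scrublet scored 0 of 85 fibroblasts above the threshold that it set in the wild type library; its own threshold in the knockout library called 0 cells in all and so did not work there. What other cell types contribute to the mixed group was not tested. A core of 63 fibroblasts (18 knockout, 45 wild type; 36 Pi16-led, 27 collagen-rich) had no such signs of another type. Within this core, 192 genes were higher and 209 lower in the Pi16-led group. Of the calls with all cells it shared 180 of the 222 higher genes (81.1% of these, 93.8% of the 192) and 185 of the 250 lower genes (74% of these, 88.5% of the 209).

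Milk protein transcripts were found in fibroblasts too, and their level followed the library. They took a median of 0.113% of UMIs in knockout and 0.714% in wild type fibroblasts, against 0.126% and 1.09% in knockout and wild type basal-like cells. Their share of the summed UMIs was 0.796% in the Pi16-led and 4.33% in the collagen-rich group, but the medians per cell were 0.654% and 0.665%, since 1 wild type collagen-rich cell had 42.4% milk transcripts. Of the 1566 Glycam1 UMIs in wild type fibroblasts 80.1% lay in 1 cell, and knockout fibroblasts had 0. In the core 0 milk genes differed between the groups by the rule.

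Between the genotypes, a gene that had 50 UMIs or more in all was counted at 2-fold or more with an interval that left out 1. Of 1526 genes, 31 (2.03%) were higher and 64 (4.19%) lower in knockout fibroblasts. These compare 2 libraries and say nothing of the spread between animals. Ratios are scaled to a median gene of 0, which again moves them by 0.06 from plain CPM. Without the cells that showed another type, 26 genes were higher and 29 lower. Of these, 16 were among the 31 higher genes (51.6% of the 31, 61.5% of the 26) and 9 among the 64 lower genes (14.1% and 31.0%). Those cells held fewer UMIs, 94518 in knockout and 161203 in wild type, so fewer genes could reach the minimum of 50. A call could thus be lost with or without its ratio. Dusp6 lay at -1.19 with all cells and at -2.11 there, Dstn at -1.30 and -0.04, and neither stayed called. The overlaps therefore do not show how many differences went with the removed cells. With each cell thinned to 1000 UMIs, 4 genes were higher and 13 lower. The genes named below are those with the highest and lowest ratios above a level of 100 CPM, leaving out milk, mitochondrial, ribosomal protein, haemoglobin, immunoglobulin and predicted genes. Among those left out, the haemoglobin gene Hbb-bs had 0 UMIs in knockout and 139 in wild type fibroblasts, all in 1 wild type cell. Fabp3, a fatty acid binding protein counted with the milk genes, had 8 UMIs in knockout and 115 in wild type fibroblasts (-3.06, -4.31 to -2.04).

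Of the 8 named genes higher in knockout fibroblasts, Ccl7, Cxcl12 and Cxcl1 encode chemokines and Igfbp3 a binding protein of growth factors. Ccl7, a chemokine for monocytes, stood at 374 CPM in knockout and 52.0 CPM in wild type fibroblasts, a log2 ratio of 2.78 (1.97 to 3.67), with 64 UMIs in 9 knockout cells and 16 UMIs in 8 wild type cells. In the knockout library 42.2% of its UMIs lay in 1 cell, and without that cell it stood at 222 CPM. Igfbp3, which carries insulin-like growth factors, stood at 281 CPM in knockout and 58.5 CPM in wild type fibroblasts (2.20, 1.39 to 3.07), and at 132 CPM in knockout fibroblasts without 1 cell that held 54.2% of its UMIs. Cxcl12 stood at 579 CPM in knockout and 211 CPM in wild type fibroblasts (1.39, 0.92 to 1.86), with 45 of its 99 knockout UMIs outside a pair of cells, 1 in each group. The Pi16-led cell of the pair was also the top knockout cell of Ccl7 and Igfbp3, with 4201 UMIs in all. It was in that group by the clustering alone, with 0 UMIs of Pi16 and 0 of Dpp4. Adventitial genes took 0.309% and parenchymal genes 0.786% of its UMIs, against medians of 2.14% and 0.0750% in the Pi16-led group. Without that cell Cxcl12 stood at 50.7 CPM in knockout and 173 CPM in wild type Pi16-led cells, on 3 and 16 UMIs, below the minimum for a call. Without both cells it stood at 274 CPM in knockout and 211 CPM in wild type fibroblasts (0.31, -0.27 to 0.88), and Igfbp3 at 73.1 and 58.5 CPM in knockout and wild type fibroblasts (0.26, -0.93 to 1.39), so that neither was called. Ccl7 lay at 2.05, Cxcl1 at 1.26 and Cebpb at 1.26 without both cells, and these 3 stayed called. Cxcl1, a chemokine for neutrophils, stood at 1729.8 CPM in knockout and 679.5 CPM in wild type fibroblasts (1.28, 1.02 to 1.55). In 1 knockout cell, which was not of the pair, lay 34.5% of its knockout UMIs. Without that cell Cxcl1 stood at 1208 CPM in knockout fibroblasts. In the wild type library 18.7% lay in 1 cell, and without that cell it stood at 560 CPM. Whether Cxcl1 stays called without its own top cells was not tested. Cebpb, a transcription factor of inflammation and fat cell formation, stood at 596 CPM in knockout and 234 CPM in wild type fibroblasts (1.28, 0.84 to 1.74). In basal-like cells the same log2 ratios were 0.75 for Ccl7, 0.36 for Igfbp3, 0.38 for Cxcl12, 1.04 for Cxcl1 and 1.42 for Cebpb. The remaining named genes were Snrpd3, a splicing protein (1.45), Lrrc17 (1.31) and Arl4a, a small GTPase (1.30). In the core these 3 lay in the same direction but were not called: Snrpd3 at 2.04 with 28 and 11 UMIs in knockout and wild type cells, below the minimum of 50, and Lrrc17 at 0.87 and Arl4a at 0.83 (-0.11 to 1.78), below 2-fold.

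Igf1 and its binding proteins Igfbp3 and Igfbp5 were all called higher with all cells. Igf1 had a log2 ratio of 1.04 between knockout and wild type fibroblasts and Igfbp5 one of 1.04, with 3851 CPM in knockout and 1795 CPM in wild type fibroblasts. Igf1 lay at 1.64 (0.69 to 2.66) in collagen-rich cells, with 32 and 14 UMIs in knockout and wild type cells. In Pi16-led cells it lay at -0.06 (-1.31 to 1.14), with 11 and 16 UMIs. In each group it was below the minimum of 50 UMIs and not called. Igfbp5 lay at 0.95 in Pi16-led cells, where most of its UMIs were, and at 0.84 in the core, both under 2-fold and not called. In the core Igf1 (1.07) and Igfbp3 (2.32) were called. Among all fibroblasts without the knockout cell with most Ccl7 UMIs, Igf1 lay at 0.82 (0.11 to 1.52). Igfbp3 lay at 1.10 (0.14 to 2.09) there, and neither was called. Igfbp5 lay at 1.07 (0.91 to 1.24) there and stayed called. In Pi16-led cells without that cell Igfbp5 lay at 1.03 (0.86 to 1.21), just past the 2-fold rule, and was called. Among 5 IGF binding protein genes that passed 2 were higher and 0 lower, and among 9 chemokines and cytokines 3 were higher and 0 lower, beside 2.03% higher and 4.19% lower of all genes tested. These counts come from 1 library each, and without both cells named above they were partly lost, as the values of Igfbp3 and Cxcl12 show.

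Of the named lower genes, 4 were antigen presentation genes and rested on 1 wild type cell. Cd74 had 1 UMI in knockout and 113 in wild type fibroblasts, of which 112 lay in 1 cell. H2-Eb1, H2-Aa and H2-Ab1 had 0 UMIs in knockout and 85, 81 and 73 in wild type fibroblasts, with 85, 81 and 71 of these in 1 cell. The other 4 were contractile genes of myoepithelial and smooth muscle cells. Tagln stood at 175 CPM in knockout and 1034 CPM in wild type fibroblasts (-2.62), and Myh11, Mylk and Tpm2 had log2 ratios of -2.93, -2.66 and -2.66. Of 2094 UMIs of the contractile list in fibroblasts 1807 lay in the mixed group, and of 1876 UMIs of the basal list 1661. That group held 25.9% of knockout and 39.2% of wild type fibroblast UMIs, and its part in these ratios was not tested. In the core Tagln lay at 0.18, Tpm2 at 0.28, Mylk at -0.30 and Myh11 at -2.11 (-7.61 to 0.85). Of these 4 genes 0 were called there. But the core left out cells with at least 4 basal markers, and Myh11 and Mylk are themselves basal markers. It kept 59 UMIs over the list of 9 basal markers and 106 over a list of 9 contractile genes. A call also needed a minimum of UMIs per gene, so the core could not decide whether these 4 genes differ between genotypes. All 9 milk genes that passed were lower in knockout fibroblasts, and 7 of them were called in the core. Of genes that stayed lower in the core, C4b, a complement protein, stood at 158 CPM in knockout and 390.2 CPM in wild type fibroblasts (-1.37, -2.03 to -0.76; core -1.59). Within the Pi16-led group its log2 ratio was -2.14 (-2.92 to -1.43). Gpx3, a secreted glutathione peroxidase named after its values were seen, stood at 187 CPM in knockout and 423 CPM in wild type fibroblasts (-1.24; core -1.47), and lay at -1.37 in basal-like cells.

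**Figure D4:**
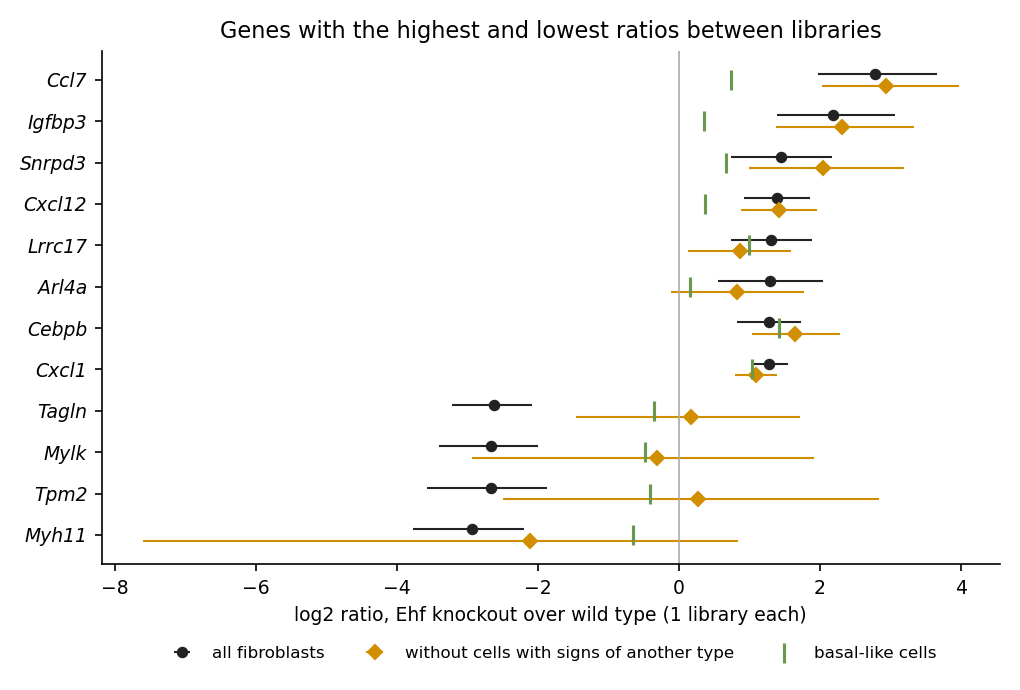
Log2 ratios of Ehf knockout over wild type for the 8 named higher genes and 4 of the 8 named lower genes, with 95% counting intervals, in all fibroblasts (black) and in those without signs of another cell type (orange); green ticks give the ratio in basal-like cells. The 4 antigen presentation genes are left out, as nearly all their UMIs lay in 1 wild type cell; Ccl7 lies at 2.78 and 2.94, and without cells of another type Tagln, Tpm2 and Mylk lie between -0.30 and 0.28 and Myh11 at -2.11.

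Collagen genes were not among the calls. Col1a2 had a log2 ratio of -0.39 between knockout and wild type fibroblasts, Col3a1 -0.35 and Col1a1 -0.43, and 0 of 10 collagens passed the 2-fold rule, beside 2.03% higher and 4.19% lower of all genes tested, so that nothing is read from this count. In the core these 3 lay at -0.83, -0.96 and -0.92. In collagen-rich cells Col1a2 lay at -0.74 (-0.84 to -0.64) and Col3a1 at -0.67 (-0.77 to -0.57), and in Pi16-led cells at -0.34 (-0.57 to -0.12) and -0.52 (-0.78 to -0.26). Both were lower in knockout cells in each group, by less than 2-fold. Single cells varied more than that: Col1a2 ran between 2105 and 28976 CPM in knockout and between 2134 and 56710 CPM in wild type collagen-rich cells. In basal-like cells, where Col1a2 is scarce, the ratio was -0.83. Dcn, Lum, Dpt and Pdgfra were likewise not called.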

How the data were processed

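The deposited 10x Chromium 3' V3 matrices give raw UMI counts, each a whole number for 1 gene in 1 barcode; the authors' features and barcodes tables hold names. The submitters' processing notes name Seurat 4.0.4 and GRCm38 (mm10); the counting tool: not given in the sources used here. Of 27179 features 1314 had no symbol (1.74% of UMIs in knockout, 1.36% in wild type). Counts were summed over cells and scaled to CPM. Ratios carry exact conditional binomial intervals at 95%, computed with scipy 1.17.1, numpy 2.4.6 and pandas 2.3.3 in Python 3.11.15. Clusters came from scanpy 1.11.5 and leidenalg 0.10.2 on 2000 variable genes, 10 principal components and 10 neighbours, and figures from matplotlib 3.10.9. Doublets were scored by Scrublet at an expected rate of 6% and kept. It called 122 wild type cells at a score of 0.379 and 0 knockout cells at 0.621, and 38 knockout cells lay above 0.379. Other cells were called basal-like, luminal-like and so on by their most detected marker list, with at least 3 markers. Cells with at least 1% Krt14 and Krt5 were meant as the comparator, but only 12 existed, so the 11911 basal-like cells were used, a choice made after seeing the data. The core left out cells with at least 4 basal markers, at least 2 endothelial, immune or pericyte markers, Krt8 and Krt18 at 0.5% or milk genes at 5% of UMIs, also chosen after seeing the data.

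Members and gene lists were chosen with earlier results of these data known. Genes named were the rule genes, the 25 highest ratios to other cells above 100 CPM, up to 6 members of each list by level and those 8-fold or more above other cells, the 8 highest and 8 lowest genotype ratios without milk (Fabp3 and Spp1 among them), mitochondrial, ribosomal protein, haemoglobin, immunoglobulin and predicted genes, and Ehf. Genes named from the contrast of groups were chosen after their values were seen. Some listed genes are not reported here. The counting step was tested on simulated data. Alternatives covered the rule, cell filters, doublets, comparator, weighting, scaling, minimum counts, thinning and resolution.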

Additional observations from a re-analysis of the deposited data

Results flagged for a closer look

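Outside the cell filters, 5 wild type barcodes carried at least 4 of the 7 rule genes, out of 2047 such barcodes, and 0 of 714 did in the knockout library. They stood out because a fibroblast signal appeared in barcodes that no comparison used. All 5 had fewer than 1000 UMIs, between 545 and 831, and the rule genes made up 1.05 to 9.94% of them. Of the 5, 4 had fewer than 500 detected genes and 1 had 34.1% mitochondrial UMIs. A Pi16 UMI was present in 0 of them.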

How the results depend on the processing

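With 1 library per genotype, no result has a replicate check, and genes under about 50 UMIs over both libraries were not compared between genotypes. No paired analysis was possible because each genotype has 1 library and the replicate number only names it. Accepting 3 of the 7 genes gave 48 knockout and 89 wild type fibroblasts, and the core held 45 wild type cells. Genes enriched in fibroblasts numbered 384 at 8-fold and 130 against cells with at least 1% Krt14 and Krt5. Genes higher in knockout fibroblasts numbered 50 with 3 of the 7 genes, 106 at a minimum of 20 UMIs, 4 after thinning to 1000 UMIs, 82 at 1.5-fold and 10 in Pi16-led cells alone. Genes lower numbered 40 without cells with endothelial, immune, pericyte or luminal signs, 29 in the core, 143 at 20 UMIs, 13 after thinning, 127 at 1.5-fold, 25 in Pi16-led and 24 in collagen-rich cells alone. Between the groups, 91 (knockout library), 140 (wild type library) and 125 (minimum of 50 UMIs) genes were higher in Pi16-led cells, and 144 (knockout library) and 159 (50 UMIs) lower. Resolution 1 gave 6 groups. Of single log2 differences, Cd74 in fibroblasts over other cells turned to -3.16 without cells of endothelial, immune, pericyte or luminal signs and -3.82 in the core. Milk genes turned positive against cells rich in Krt14 and Krt5 (Csn1s1 1.18, Csn1s2a 1.16, Csn2 1.06, Glycam1 1.89, Wap 1.28, Wfdc18 0.64) and against basal-like cells (0.35, 0.069, 0.17, 0.64 and 0.34 for the first 5). With 3 of the 7 genes, the knockout over wild type ratios turned to 0.071 for Myh11, 0.14 for Mylk, 0.28 for Tagln and 0.66 for Tpm2. Fewer cells or counts are part of how several of these alternatives are built; otherwise the cause was not tested. Without the knockout cells with most and second most Cxcl12 UMIs, an alternative added after seeing the data, 28 genes were higher and 69 lower. In the core, on fewer than 20 UMIs, Tagln (0.18) and Tpm2 (0.28) turned positive and Cd74 had 0 UMIs in knockout and 1 in wild type cells. Of the other single values with at least 20 UMIs and a UMI on each side, 1858 for fibroblasts over other cells kept their size within counting error and 832 moved, no called value turning its sign, 146 and 26 did so between genotypes, and 156 and 12 between the groups.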

Other observations

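Immediate early genes, which respond within minutes to handling and digestion of tissue as well as to growth signals, were abundant in the fibroblasts. The list of 16 took 2.13% of UMIs in Pi16-led and 2.24% in collagen-rich cells, against 1.77% in basal-like cells. Fos stood at 4325 CPM in knockout and 4919 CPM in wild type fibroblasts, and Egr1 at 4874 and 3973 CPM in knockout and wild type fibroblasts. Of the 15 list members that passed the filter on low values 1 was at least 4-fold higher in fibroblasts than in other kept cells, beside 18.2% of all genes, and 0 of 13 differed between genotypes by the rule, beside 2.03% higher and 4.19% lower of all genes, a share from which nothing can be read for 13 genes.

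HOX genes, which keep a record of position along the body axis in mesenchymal cells, were detected at low counts. Of 19 members 17 had a UMI in fibroblasts and 0 passed the filter. Hoxc8 had 23 UMIs, at 64.3 CPM in knockout and 39.0 CPM in wild type fibroblasts, and Hoxc10 had 14 UMIs. The list took 0.0221% of UMIs in fibroblasts and 0.00182% in basal-like cells.

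Genes of some neighbouring cell types were at or near 0. Of the Schwann, adipocyte and mesothelial lists 0 members passed the filter. Cdh19 of Schwann cells, Plin1 and Cidec of fat cells, and Msln, Upk3b, Lrrn4 and Wt1 of mesothelium had 0 UMIs in fibroblasts.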
